A study of Mus musculus with 21 samples.

Results

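The let-7 and miR-98 family is a set of microRNAs (miRNAs) that share 1 seed, the stretch from base 2 to base 8 through which a miRNA pairs with its target mRNAs. Members were taken by name alone: let-7 followed by a letter and the 5p arm, or the 5p arm of miR-98. In small-RNA-seq of mouse pituitaries this rule found 9 members among 1934 counted miRNA names: let-7a-5p, let-7b-5p, let-7c-5p, let-7d-5p, let-7e-5p, let-7f-5p, let-7g-5p, let-7i-5p and miR-98-5p. The younger of 2 cohorts of mice had counts for 9 members among 1909 names, and the older for 7 members among 1841 names, because let-7a-5p and let-7c-5p had no entry there.

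In nematodes let-7 was first described as a regulator of developmental timing, and in mammals its members accumulate as cells differentiate. They repress growth-promoting mRNAs such as *Hmga2*, whose overexpression causes pituitary adenomas in mice, and *Lin28a* and *Lin28b*, whose proteins bind let-7 precursors and block their maturation. Several members are transcribed together from shared clusters, and let-7a, let-7c and let-7f each come from more than 1 hairpin with the same mature sequence.

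The study asked what follows when the mRNA of 1 transcriptional repressor, *Zeb1*, escapes miR-200a/b. Female mice on a C57BL/6J background carried WT *Zeb1*, 1 copy of an allele with mutated miR-200a/b sites (*Zeb1 200H*) or 2 copies (*Zeb1 200M*). Virgin females of 8–12 weeks and females of 28–36 weeks from a breeding trial gave whole pituitaries at proestrus, and no mouse gave more than 1 library. The mice, WT included, came from lines of 2 targeted stem cell clones, so the animals of a cohort share the history of these few founders. The clone behind each library was not stated, nor how the clones were spread over the genotypes.

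The virgin cohort had 3 WT libraries (replicates 1, 2 and 4), 4 *Zeb1 200H* libraries and 4 *Zeb1 200M* libraries. The breeding-trial cohort had 4 WT libraries, 3 *Zeb1 200H* libraries (replicates 1, 3 and 4) and 3 *Zeb1 200M* libraries (replicates 1, 2 and 3). Counted miRNA reads per virgin library were 3816917, 10806313 and 9029142 in WT, 10266419, 9698685, 10082073 and 8551806 in *Zeb1 200H*, and 10515664, 9508346, 8502878 and 10260660 in *Zeb1 200M*. Per breeding-trial library they were 154546, 113937, 84093 and 191650 in WT, 110003, 60037 and 131324 in *Zeb1 200H*, and 87665, 124190 and 122810 in *Zeb1 200M*. The cohorts also differed in age, breeding, RNA input, sequencing instrument and the dictionary used for counting, so genotypes were compared within a cohort and levels were not compared between cohorts. Whole pituitary was sequenced, so fewer cells of a type and less RNA per cell cannot be told apart.

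The mature sequences below were read from the GRCm38.p6 genome at the RefSeq positions of each miRNA, with the seed in capitals. All 9 carry the seed GAGGUAG and are 22 nt long.
let-7a-5p: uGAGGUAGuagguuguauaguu
let-7b-5p: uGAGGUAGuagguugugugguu
let-7c-5p: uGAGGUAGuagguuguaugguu
let-7d-5p: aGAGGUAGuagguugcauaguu
let-7e-5p: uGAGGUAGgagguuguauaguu
let-7f-5p: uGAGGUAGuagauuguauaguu
let-7g-5p: uGAGGUAGuaguuuguacaguu
let-7i-5p: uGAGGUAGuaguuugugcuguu
miR-98-5p: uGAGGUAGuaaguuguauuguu
Counted from 1 at the 5′ end, let-7b-5p differs from let-7a-5p by A17G and A19G, let-7c-5p by A19G, let-7d-5p by U1A and U16C, let-7e-5p by U9G and let-7f-5p by G12A. let-7g-5p differs by G12U and U18C, let-7i-5p by G12U, A17G, U18C and A19U, and miR-98-5p by G11A and A19U.

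Matching covered only part of these sequences. Reads of the virgin cohort were matched over their first 19 nt and reads of the breeding trial over their first 18 nt. let-7a-5p and let-7c-5p first differ at base 19, and neither had an entry in the breeding-trial counts, where it was not stated whether reads that match both were dropped or counted under another name. Of 1679 mature names, 23 share their first 18 nt with another name, and 12 of these had virgin counts against 0 in the older females. Over 19 nt, 11 names still share their sequence with another, and 0 of the 11 are members.

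The 9 members come from 12 hairpins at 8 loci when hairpins within 10000 bp are joined (RefSeq annotation of GRCm38.p6). The hairpins of let-7d, let-7f-1 and let-7a-1 lie at chr13:48536012-48538272 on the minus strand, and those of let-7c-2 and let-7b at chr15:85706603-85707403 on the plus strand. The hairpins of let-7f-2 and miR-98 lie on the plus strand at chrX:151912346-151913321 in an intron of *Huwe1*. The other 5 loci hold 1 family hairpin each: let-7i at chr10:122985640-122985724 on the minus strand, and on the plus strand let-7c-1 at chr16:77599657-77599750, let-7e at chr17:17830352-17830444 in an intron of *Spaca6*, let-7a-2 at chr9:41536716-41536811 and let-7g at chr9:106178840-106178927 in an intron of *Wdr82*.

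Every member was among the abundant pituitary miRNAs except miR-98-5p. Levels are given as CPM, counts scaled to a library total of 1e+06 counted miRNA reads. Over the 11 virgin libraries mean CPM ± SD was 26048 ± 1290 for let-7c-5p (rank 9 of all miRNAs), 23632 ± 2786 for let-7f-5p (rank 11) and 22009 ± 1607 for let-7a-5p (rank 12). let-7b-5p followed at 16002 ± 955 (rank 13), then let-7g-5p at 10758 ± 1531 (rank 19) and let-7e-5p at 7371 ± 1326 (rank 28). let-7d-5p had 7074 ± 1118 (rank 31), let-7i-5p 5538 ± 787 (rank 36) and miR-98-5p 932 ± 171 (rank 108). The gaps between let-7c-5p and let-7f-5p, between let-7f-5p and let-7a-5p, and between let-7e-5p and let-7d-5p were within the larger SD of each pair. The most abundant pituitary miRNA, miR-7a-5p, had 124175 CPM.

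In the breeding trial the order was the same for most of the 7 counted members, except that let-7e-5p ranked below let-7d-5p and let-7i-5p. Its place above let-7d-5p in the virgin order came from WT replicate 1, since the mean of the other 10 virgin libraries was 7371 CPM for let-7d-5p and 7003 for let-7e-5p. Over 10 libraries let-7f-5p had 20978 ± 3259 CPM (rank 10), let-7b-5p 15763 ± 1575 (rank 13), let-7g-5p 12662 ± 1460 (rank 18) and let-7d-5p 8965 ± 1368 (rank 25). let-7i-5p had 5672 ± 738 (rank 30), let-7e-5p 5238 ± 993 (rank 35) and miR-98-5p 1089.6 ± 226 (rank 103). The gap between let-7i-5p and let-7e-5p was within the larger SD. At this depth miR-98-5p had 66 to 179 counts per library.

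**Figure D1:**
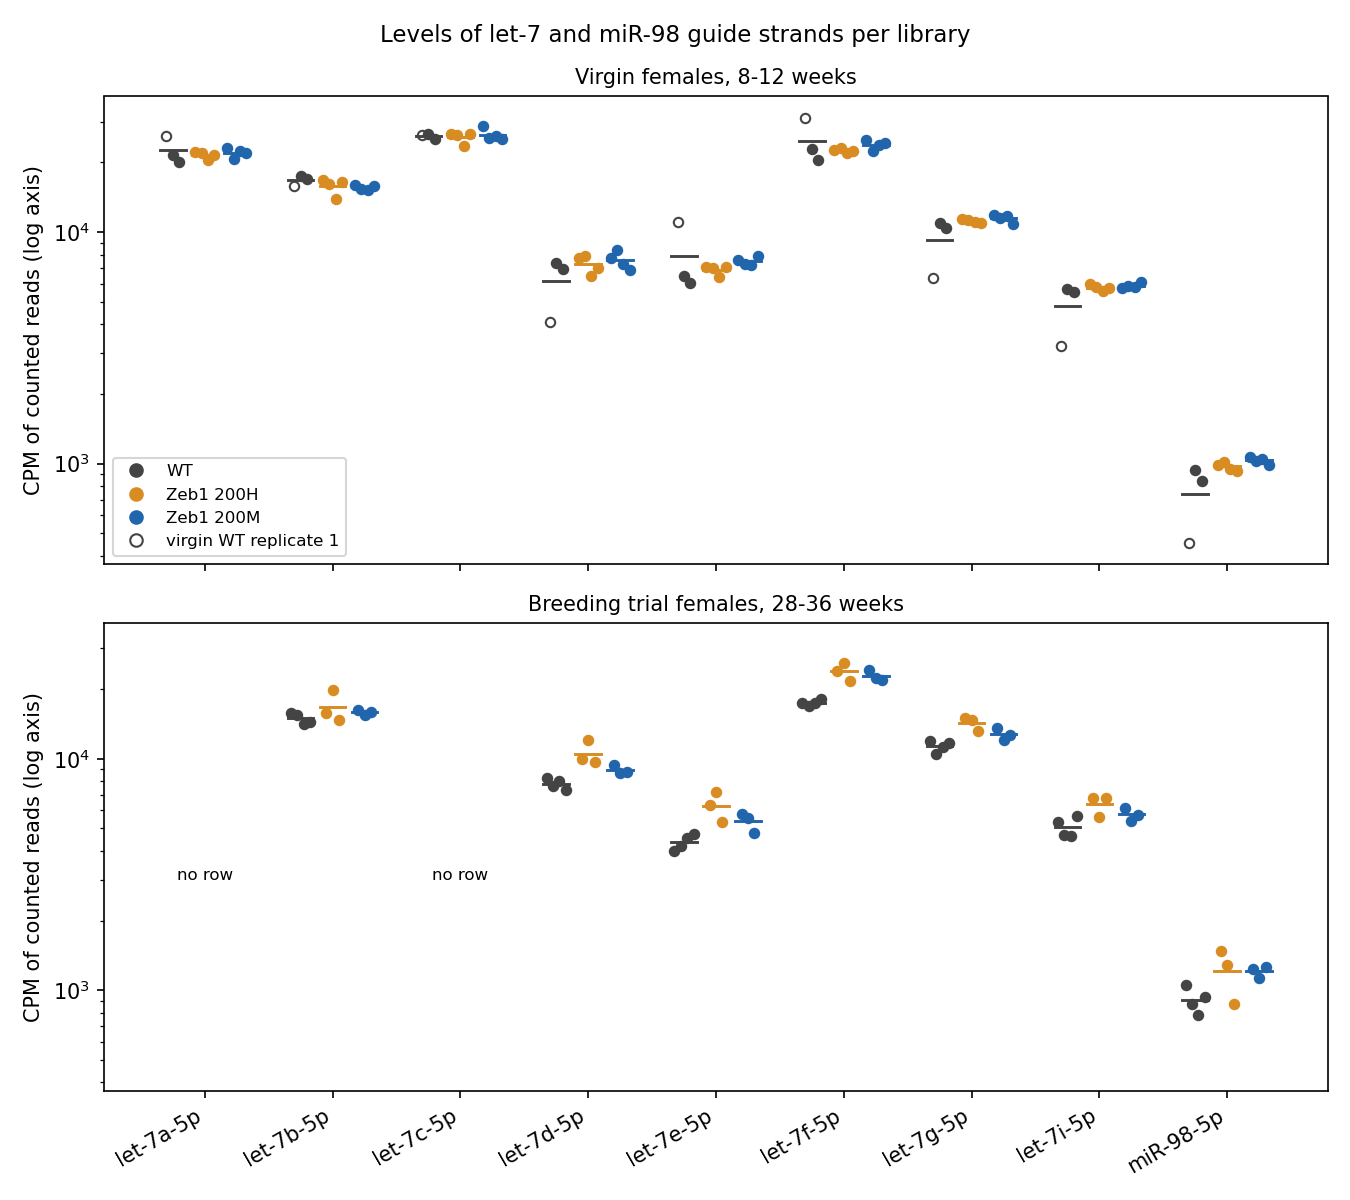
CPM of counted reads (log axis) of each member in each library, by genotype, with virgin females above and breeding-trial females below. Bars are group means and the hollow point is virgin WT replicate 1.

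Together the 9 members took a steady part of the virgin reads, between 11.04% (95% Wilson interval 11.02–11.06) in *Zeb1 200H* replicate 3 and 12.69% (12.67–12.71) in *Zeb1 200M* replicate 1. The 7 members of the breeding trial took between 6.027% (5.89–6.167) in WT replicate 2 and 8.641% (8.419–8.869) in *Zeb1 200H* replicate 3. These intervals were set from the counts of each library alone and leave out variation between animals and libraries. Reads were counted without molecular identifiers to set copies of 1 molecule apart, so even the counting error may be wider. The sums of the cohorts cannot be set side by side, because let-7a-5p and let-7c-5p are missing from the second.

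Virgin WT replicate 1 stood apart from the other 10 virgin libraries, and the virgin fold changes against WT that the results turn on are therefore given with and without it. It had the fewest reads, 836 miRNAs with a count against 1040 to 1079 elsewhere, and a median correlation of log2 CPM with the other libraries of 0.944 against 0.981 to 0.996. Of 501 miRNAs with a mean of 50 or more counts, 15% lay above and 64.9% below all 10 others in this library. The cause was not tested.

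The family split in that library. let-7a-5p, let-7e-5p and let-7f-5p lay above all 10 other libraries, at 1.21, 1.58 and 1.36 times their mean CPM. let-7d-5p, let-7g-5p, let-7i-5p and miR-98-5p lay below all 10, at 0.558, 0.564, 0.558 and 0.464 times the mean. let-7b-5p (0.984) and let-7c-5p (1.01) lay within the range of the others, and so did the sum of the 9. In a look taken after these values were seen, the 3 members above the others have the same bases 13 to 22. Each of the other 6 differs from them there by 1 to 3 bases. This stretch was picked with the split known, and it starts just past base 12, where let-7f-5p differs from let-7a-5p. Over all 22 bases let-7c-5p, let-7e-5p and let-7f-5p each differ from let-7a-5p by 1 base.

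Scaling moved the fold changes against WT. The tests used TMM, a scaling that sets library factors so that most miRNAs show no difference, and log2 fold changes with standard errors (SE) are from edgeR. TMM factors were 0.638, 0.942 and 0.972 in virgin WT against 1.03 to 1.12 in the 8 other virgin libraries, and 0.852 to 0.971 in breeding-trial WT against 0.999 to 1.1 in the 6 others. With library totals alone the median log2 fold change of all tested miRNAs was 0.34 and 0.29 in virgin *Zeb1 200M* and *Zeb1 200H* against WT, and 0.24 and 0.18 in the breeding trial, where TMM puts it close to 0. Adjusted p-values are by the Benjamini–Hochberg method over all tested miRNAs, and a miRNA is called at an adjusted p below 0.05.

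The genotypes were plain in miR-200a-3p, which *Zeb1* is known to repress. Virgin miR-200a-3p had 9134 ± 266 CPM in WT, 1829.8 ± 164 in *Zeb1 200H* and 1369 ± 72.4 in *Zeb1 200M*. With edgeR and Benjamini–Hochberg its log2 fold change in *Zeb1 200M* against WT was −3.16 ± 0.184 (adjusted p = 1.8e-05), or −2.92 ± 0.0819 without WT replicate 1 (adjusted p = 3.7e-10), and in the breeding trial it was −2.94. No member of the let-7 family moved on that scale.

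In virgin *Zeb1 200M* females edgeR called no member against WT when the 2 genotypes were fitted by themselves with TMM and all libraries. let-7b-5p came closest, and its outcome turned on WT replicate 1, on the tool and on the form of the fit. With edgeR 0 of 9 members and 6.49% of all tested miRNAs (44 of 678) were called, and at an unadjusted p under 0.05 there were 1 member, let-7b-5p, and 150 miRNAs. DESeq2 and limma-voom with sample quality weights each called 1 of 9 members, again let-7b-5p, beside 86 of 1318 and 184 of 678 miRNAs, and so did an edgeR fit of all 3 genotypes together (90 of 704). Without WT replicate 1, edgeR called 1 of 9 members and 23.9% of miRNAs (168 of 703).

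let-7b-5p had 15764, 17463 and 16945 CPM in WT replicates 1, 2 and 4, against 16045, 15417, 15231 and 15794 in *Zeb1 200M*. After TMM scaling it had 24702, 18537 and 17433 CPM in WT, against 15018, 13803, 14046 and 14867 in *Zeb1 200M*. WT replicates 2 and 4 were above every *Zeb1 200M* library on both scales, while WT replicate 1 was in the midst of them in plain CPM and far above them after TMM. After TMM 12.1% of tested miRNAs (82 of 678) lay lower in *Zeb1 200M* without overlap, let-7b-5p alone of the members. In plain CPM 0 of 9 members and 4.57% of tested miRNAs (31 of 678) lay lower without overlap, while 2 (let-7i-5p and miR-98-5p) and 30.5% of tested miRNAs (207 of 678) lay higher. With all libraries its log2 fold change was −0.52 ± 0.162 (edgeR with Benjamini–Hochberg adjusted p = 0.111), and without WT replicate 1 it was −0.30 ± 0.0636 (adjusted p = 0.00568). Over 22 alternative settings the log2 fold change ran from −0.60 to −0.10 and the adjusted p from 0.00174 to 0.596, with let-7b-5p called lower in 7 of them. With library totals alone it was not called, at −0.10 with all libraries and −0.14 ± 0.0574 without WT replicate 1 (edgeR with Benjamini–Hochberg adjusted p = 0.096, range over the 22 alternatives 0.00174 to 0.596). So let-7b-5p was below WT in every setting, and whether it passed depended on that library, on the scaling, on the tool and on whether the 3 genotypes were fitted together.

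The members above all other libraries in WT replicate 1 had the widest errors. let-7e-5p had 11046, 6494 and 6028 CPM in WT, against 7562, 7289, 7243 and 7853 in *Zeb1 200M*. The 4 *Zeb1 200M* libraries were above WT replicates 2 and 4 and below WT replicate 1. Its log2 fold change was −0.59 ± 0.348 with all libraries and 0.10 ± 0.0777 without WT replicate 1, and neither was called. When WT replicate 1 was left out and library totals alone were used, let-7e-5p was called higher (log2 0.26, edgeR with Benjamini–Hochberg adjusted p = 0.0197, range over 22 alternatives 0.0197 to 0.874). In that fit 1 of 9 members and 206 of 703 miRNAs were called, 159 of the miRNAs higher. let-7f-5p had 31201, 22791 and 20453 CPM in WT and 24995, 22319, 23891 and 24191 in *Zeb1 200M*, so the groups overlapped. Its fold change was −0.55 ± 0.289 with all libraries and −0.02 without WT replicate 1.

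With all libraries 1 of the 9 members, miR-98-5p at 0.13 ± 0.14, had a log2 fold change above 0. The median of the 9 was −0.42 with TMM, against −0.0025 for all tested miRNAs, but 0.02 with library totals alone and −0.08 without WT replicate 1. All 44 calls together were 18 higher and 26 lower with TMM, and with library totals alone 39 of 58 were higher.

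In virgin *Zeb1 200H* females the picture was close to that of *Zeb1 200M*, and the same 3 WT libraries stand in both comparisons. With edgeR 0 of 9 members and 5.06% of tested miRNAs (34 of 672) were called, and 1 member, let-7b-5p, and 131 miRNAs had an unadjusted p under 0.05. DESeq2 and limma-voom called 0 members, beside 67 of 1339 and 152 of 672 miRNAs. Without WT replicate 1, edgeR called 1 of 9 members, let-7b-5p, and 21.6% of miRNAs (151 of 699).

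let-7b-5p had 16799.8, 16171, 13952 and 16443 CPM in *Zeb1 200H* replicates 1 to 4, against the same WT values as above. After TMM scaling the *Zeb1 200H* values were 16211, 14811, 13494 and 15453 CPM. In plain CPM WT replicates 2 and 4 were above all 4 and WT replicate 1 was among them, and after TMM all 3 WT libraries were above all 4, as for 2 of 9 members (let-7b-5p and let-7c-5p) and 11.9% of tested miRNAs (80 of 672). On the plain scale 0 of 9 members and 4.76% of tested miRNAs (32 of 672) lay lower without overlap, while 1 (let-7g-5p) and 28.4% of tested miRNAs (191 of 672) lay higher. Its log2 fold change was −0.45 ± 0.169 with all libraries (edgeR with Benjamini–Hochberg adjusted p = 0.195) and −0.25 ± 0.0766 without WT replicate 1 (adjusted p = 0.0343). Over 22 alternatives it ran from −0.55 to −0.08 with adjusted p from 0.0191 to 0.724, and let-7b-5p was called lower in 4 of them, each with WT replicate 1 left out. Under library totals alone it was −0.08 with all libraries and −0.12 ± 0.0704 without WT replicate 1.

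let-7e-5p, at 7082, 7006, 6427 and 7048 CPM in *Zeb1 200H*, was above WT replicate 4 in all 4 libraries, above WT replicate 2 in 3 of them, and below WT replicate 1 in all. On the log2 scale the change was −0.66 ± 0.35 with all libraries and 0.01 without WT replicate 1. let-7f-5p, at 22649, 23057, 21931 and 22471 CPM, overlapped with WT, and its fold change was −0.58 ± 0.289 with all libraries and −0.07 without WT replicate 1. The median of the 9 members was −0.40 with TMM, against 0.0062 for all tested miRNAs, but −0.02 with library totals alone and −0.09 without WT replicate 1. The 34 calls were 11 higher and 23 lower with TMM, and with library totals alone 21 of 42 were higher.

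**Figure D2:**
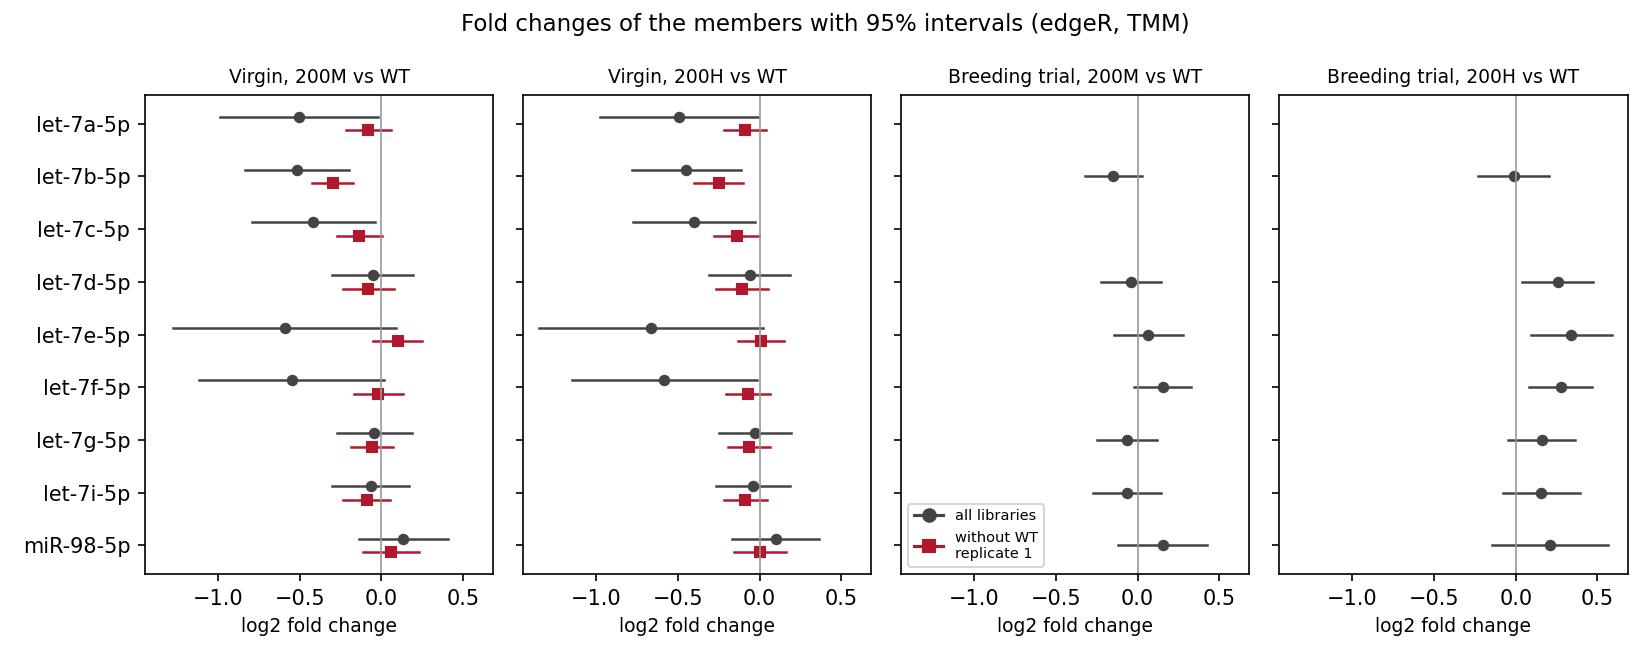
Log2 fold changes against WT (edgeR, TMM) for each member, by genotype and cohort, with nominal 95% intervals. The intervals were set from each SE with the normal distribution and are narrower than the edgeR test allows. For virgin *Zeb1 200M* let-7a-5p the interval ran from −0.987 to −0.0229, while the unadjusted edgeR p was 0.0726. Circles use all libraries, and squares leave out virgin WT replicate 1.

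Between virgin *Zeb1 200M* and *Zeb1 200H* females no member was called, and every fitted difference was small. let-7e-5p was picked out after its values were seen, as it was higher in plain CPM in each *Zeb1 200M* library than in each *Zeb1 200H* library, as were 5.93% of tested miRNAs (40 of 675), and after TMM scaling it overlapped. With edgeR 0 of 9 members and 2.22% of tested miRNAs (15 of 675) were called, and 0 members and 63 miRNAs had an unadjusted p under 0.05. DESeq2 and limma-voom called 0 members too. This comparison holds no WT library, so WT replicate 1 has no part in it. The 9 log2 fold changes ran from −0.07 ± 0.0609 for let-7b-5p to 0.07 ± 0.0567 for let-7e-5p, both with an edgeR and Benjamini–Hochberg adjusted p = 0.777. The nominal 95% interval for let-7b-5p, set from its SE with the normal distribution, was −0.19 to 0.05. That interval is narrower than the edgeR test allows. The SE of let-7e-5p was thus far smaller here than the 0.348 it had against WT.

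let-7b-5p was a smaller part of the family in the mutant libraries than in WT replicates 2 and 4. Its part of the 9 members' counts was 12.66% (12.57–12.76), 14.57% (14.51–14.63) and 15.06% (14.99–15.13) in virgin WT replicates 1, 2 and 4. It was 13.83%, 13.44%, 12.64% and 13.87% in *Zeb1 200H* and 12.64%, 13.06%, 12.63% and 13.18% in *Zeb1 200M*, with group means ± SD of 14.1 ± 1.27, 13.4 ± 0.571 and 12.9 ± 0.284. WT replicates 2 and 4 were above all 8 mutant libraries and WT replicate 1 was among the lowest, and these shares, which do not depend on scaling, were not tested.

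The sum of the 9 members overlapped between virgin genotypes in plain CPM, at 124512, 119878 and 112509 in WT, 121453, 120317, 110396 and 118588 in *Zeb1 200H*, and 126915, 118025, 120612 and 119788 in *Zeb1 200M*. After TMM scaling WT replicate 1 had 195108, WT replicates 2 and 4 had 127253 and 115746, and the 8 mutant libraries had 105669 to 118791. WT replicate 4 then lay within the mutant range, while the other 2 WT libraries lay above it.

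Cell-type marker miRNAs moved in the same virgin libraries. With all libraries, of the marker miRNAs tested, 3 of 18 were called higher in *Zeb1 200M* against WT (both miR-124-3p forms and miR-145a-5p), 2 of 17 in *Zeb1 200H* against WT (both miR-124-3p forms) and 2 of 18 between the mutants. In the same order, 6.49% (44 of 678), 5.06% (34 of 672) and 2.22% (15 of 675) of all tested miRNAs were called. Without WT replicate 1, *Zeb1 200M* had 9 of 18 markers called, beside 23.9% of all tested miRNAs (168 of 703). *Zeb1 200H* then had 8 of 17, beside 21.6% (151 of 699). In each miR-375-3p was lower (−0.51 and −0.41), and the other 8 and 7 were higher. Both miR-124-3p forms, miR-9-5p, miR-145a-5p, miR-150-5p and the skeletal-muscle marker miR-1a-3p were higher in both. The skeletal-muscle markers miR-206-3p and miR-133a-3p were also higher in *Zeb1 200M*, and miR-223-3p in *Zeb1 200H*. The neuronal markers, of which miR-124-3p is the most abundant, summed to 902, 1964 and 2163 CPM in WT, 4732, 4876, 5251 and 5257 in *Zeb1 200H*, and 8038, 6822, 8143 and 5655 in *Zeb1 200M*. The endocrine markers, led by miR-7a-5p, summed to 328424, 221249.9 and 225691 CPM in WT, 207026, 201037, 221995 and 207804 in *Zeb1 200H*, and 185539.5, 200997, 182481 and 219495 in *Zeb1 200M*. Blood markers, led by miR-451a, summed to 4998, 7289 and 9119 CPM in WT, 8033, 18158, 10499 and 9503 in *Zeb1 200H*, with *Zeb1 200M* between 8990.0 and 10609.7. Endothelial markers, led by miR-126a-3p, ran from 4059 to 5842 CPM over the virgin libraries. Smooth-muscle markers, led by miR-145a-5p, ran from 1867 to 4412. Skeletal-muscle markers summed to 9.17, 14.07 and 6.42 CPM in WT and 27.66, 47.22, 14.58 and 23.5 in *Zeb1 200H*. In *Zeb1 200M* they summed to 38.8, 53.11, 14.0 and 73.9. The liver marker miR-122-5p ran from 2.36 to 7.94, and no marker list summed to 0. Their part in the result was not tested.

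In breeding-trial *Zeb1 200M* females no member was called against WT with TMM scaling. Every member but let-7b-5p and let-7i-5p was higher in plain CPM in all 3 *Zeb1 200M* libraries than in all 4 WT libraries, and so were many other miRNAs. With edgeR 0 of 7 members and 35.9% of tested miRNAs (99 of 276) were called, and 0 members and 123 miRNAs had an unadjusted p under 0.05. DESeq2 and limma-voom called 0 members. In plain CPM 5 of 7 members and 33.3% of tested miRNAs (92 of 276) were higher in *Zeb1 200M* without overlap, against 0 of 7 and 19.2% (53 of 276) after TMM scaling. Using library totals alone edgeR called 3 of 7 members and 30.4% of miRNAs (84 of 276) higher. In plain CPM the part of the members that lay higher was thus above that of all tested miRNAs, and after TMM scaling it was 0 of 7. The cause was not tested.

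let-7f-5p had 17406, 16930.4, 17433 and 18111 CPM in WT and 24172, 22369 and 21904 in *Zeb1 200M*. After TMM scaling it had 19754, 17435, 18505 and 21249 CPM in WT and 22039.5, 21006 and 20052 in *Zeb1 200M*. The groups did not overlap in plain CPM, and after TMM WT replicate 4 was above 2 of the 3 *Zeb1 200M* libraries. Its log2 fold change was 0.15 ± 0.0902 with TMM (edgeR with Benjamini–Hochberg adjusted p = 0.205) and 0.39 with library totals alone (adjusted p = 0.000578, range over 17 alternatives 0.000578 to 0.576).

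let-7e-5p had 3979, 4195, 4555 and 4743 CPM in WT and 5783, 5564 and 4779.7 in *Zeb1 200M*. Replicate 3 of *Zeb1 200M* lay just above the highest WT library. The fitted change was 0.07 ± 0.106 on the log2 scale with TMM and 0.30 with library totals alone, where edgeR with Benjamini–Hochberg gave an adjusted p = 0.0207 (range over 17 alternatives 0.0207 to 0.949). miR-98-5p, at 1055, 869, 785 and 934 CPM in WT and 1232, 1127 and 1262 in *Zeb1 200M*, had 0.15 ± 0.139 with TMM and 0.39 with library totals alone, where the adjusted p was 0.0264 by edgeR with Benjamini–Hochberg (range over 17 alternatives 0.0264 to 0.661). All 3 *Zeb1 200M* libraries were above all 4 WT libraries for miR-98-5p, on counts of 66 to 179.

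let-7b-5p had the lowest fold change of the 7 here, −0.15 ± 0.0893 (edgeR with Benjamini–Hochberg adjusted p = 0.212), and it was not called. Its plain CPM were 15814, 15474, 14175 and 14396 in WT and 16198, 15379.7 and 15984 in *Zeb1 200M*, so the groups overlapped. After TMM scaling it had 15047 to 17948 CPM in WT and 14443 to 14769 in *Zeb1 200M*, with every *Zeb1 200M* library below every WT library, as for 20.3% of tested miRNAs (56 of 276). The median of the 7 members was −0.04 with TMM, against 0.0014 for all tested miRNAs, but 0.20 with library totals alone. The 99 calls were 56 higher and 43 lower with TMM, and with library totals alone 84 of 110 were higher.

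In breeding-trial *Zeb1 200H* females let-7d-5p, let-7e-5p and let-7f-5p came nearest to a call, all toward higher levels, and no member passed. The 4 WT libraries are those of the comparison above. With edgeR 0 of 7 members and 12% of tested miRNAs (32 of 267) were called, and 3 members and 73 miRNAs had an unadjusted p under 0.05. DESeq2 and limma-voom called 0 members. In plain CPM 4 of 7 members and 23.6% of tested miRNAs (63 of 267) were higher without overlap, against 0 of 7 and 9.74% (26 of 267) after TMM scaling. Using library totals alone edgeR called 5 of 7 members and 20.2% of miRNAs (54 of 267) higher.

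let-7e-5p had 6291, 7179 and 5315 CPM in *Zeb1 200H* replicates 1, 3 and 4, each above the highest WT library at 4743. After TMM scaling it had 6297, 6747 and 4952, and replicate 4 lay below the highest WT library at 5565. Its log2 fold change was 0.34 ± 0.126 (edgeR with Benjamini–Hochberg adjusted p = 0.0809). It was called higher without *Zeb1 200H* replicate 4 (0.46 ± 0.139, edgeR with Benjamini–Hochberg adjusted p = 0.0404), where 24 of 270 miRNAs were called. It was also called higher with library totals alone (0.51, edgeR with Benjamini–Hochberg adjusted p = 0.00493, range over 17 alternatives 0.00493 to 0.239). Over these alternatives its log2 fold change ran from 0.22 to 0.51.

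let-7f-5p had 23990.3, 25784 and 21679 CPM in *Zeb1 200H*, each above the highest WT library at 18111, and 24014, 24234 and 20197 CPM after TMM scaling, where replicate 4 lay below the highest WT library at 21249. Its log2 fold change was 0.27 ± 0.0995 (edgeR with Benjamini–Hochberg adjusted p = 0.0802). With library totals alone it was 0.45 with an adjusted p = 0.00188 by edgeR with Benjamini–Hochberg (range over 17 alternatives 0.00188 to 0.257).

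let-7d-5p had 8276, 7627, 8003 and 7352 CPM in WT and 9927, 12026 and 9640.3 in *Zeb1 200H*, without overlap. After TMM scaling it had 9937, 11303 and 8981 in *Zeb1 200H*, where replicate 4 lay below the highest WT library at 9392. Its fitted log2 change was 0.26 ± 0.11 (edgeR with Benjamini–Hochberg adjusted p = 0.134), and 0.43 with library totals alone (adjusted p = 0.00705, range over 17 alternatives 0.00705 to 0.387). Over these alternatives the change ran from 0.14 to 0.43. let-7g-5p was also called with library totals alone, at 0.33 (edgeR with Benjamini–Hochberg adjusted p = 0.0189, range over 17 alternatives 0.0189 to 0.635) and let-7i-5p at 0.33 (adjusted p = 0.0433, range 0.0433 to 0.705). let-7b-5p stood at −0.01 ± 0.111, with 15781, 19788 and 14636 CPM in *Zeb1 200H*, which overlapped WT.

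With TMM 6 of 7 members had a log2 fold change above 0 in *Zeb1 200H*, let-7b-5p being the exception, and with library totals alone let-7b-5p too was above 0. The median of the 7 was 0.21 with TMM, against 0.0041 for all tested miRNAs, and 0.39 with library totals alone. The 32 calls were 13 higher and 19 lower with TMM, and with library totals alone 54 of 69 were higher. Replicate 3 of *Zeb1 200H*, the library with the fewest reads, was the highest of all for let-7b-5p, let-7d-5p, let-7e-5p and let-7f-5p.

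Breeding-trial *Zeb1 200M* and *Zeb1 200H* libraries differed in no member at the threshold, and let-7d-5p came nearest. With edgeR 0 of 7 members and 1.09% of tested miRNAs (3 of 274) were called, and 1 member, let-7d-5p, and 40 miRNAs had an unadjusted p under 0.05. DESeq2 and limma-voom called 0 members. let-7d-5p had 9365, 8672 and 8762 CPM in *Zeb1 200M*, each below the lowest *Zeb1 200H* library at 9640.3, as for 6.57% of tested miRNAs (18 of 274). The log2 fold change of let-7d-5p was −0.28 ± 0.121 (edgeR with Benjamini–Hochberg adjusted p = 0.24). The median of the 7 members was −0.20 with TMM, against 0.0163 for all tested miRNAs, and −0.16 with library totals alone. Of the 3 calls 1 was higher with TMM, and with library totals alone 2 of 4 were.

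In the breeding trial the sum of the 7 members was 63799.8, 60270.1, 60849 and 62948 CPM in WT, 79216, 86413 and 72097 in *Zeb1 200H*, and 76427, 70569 and 71085 in *Zeb1 200M*. Every mutant library was above every WT library. After TMM scaling the sums were 72407, 62066, 64591 and 73853 in WT, 79293, 81219 and 67167 in *Zeb1 200H*, and 69686, 66269.9 and 65077 in *Zeb1 200M*, and the genotypes overlapped. The sum was not tested.

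**Figure D3:**
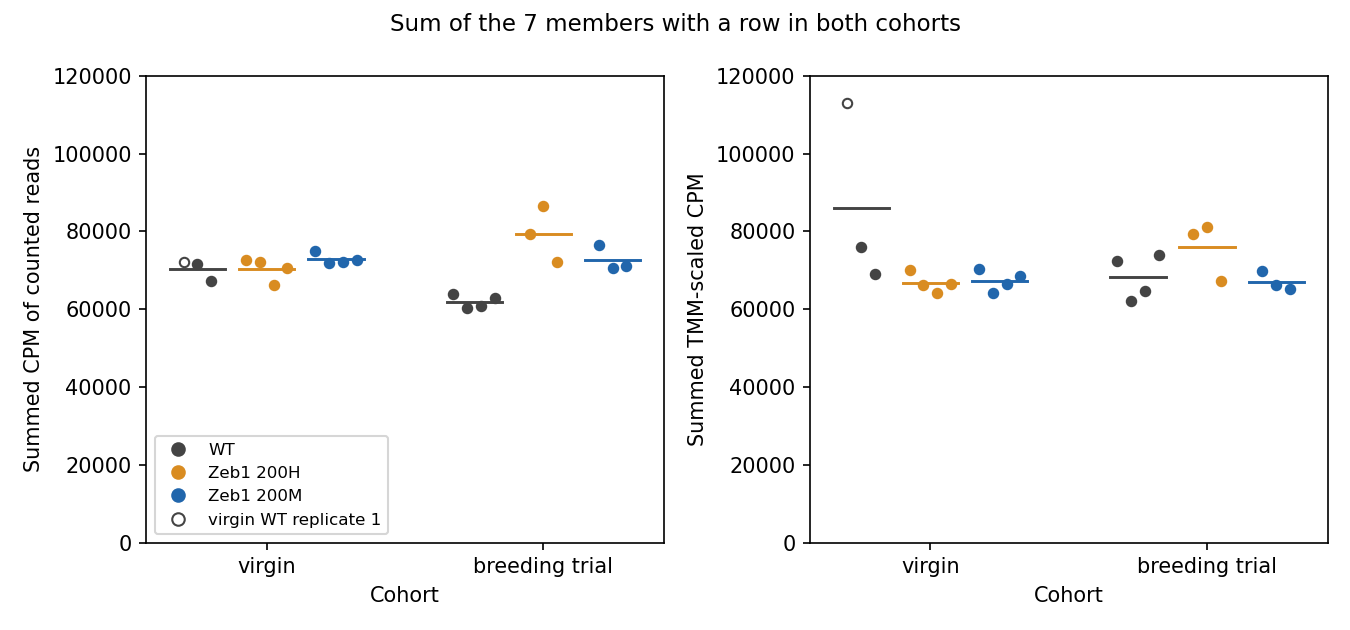
Summed level of the 7 members counted in both cohorts, per library and genotype, in CPM of counted reads (left) and in CPM after TMM scaling (right). Bars are group means and the hollow point is virgin WT replicate 1.

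Within the family let-7f-5p took a larger part of the counts in every mutant library of the breeding trial. Its part of the 7 members was 27.28% (26.41–28.17), 28.09% (27.04–29.17), 28.65% (27.43–29.9) and 28.77% (27.97–29.59) in WT. It was 30.28% (29.33–31.26), 29.84% (28.61–31.1) and 30.07% (29.15–31) in *Zeb1 200H*, and 31.63% (30.52–32.75), 31.7% (30.73–32.68) and 30.81% (29.85–31.79) in *Zeb1 200M*. The 3 genotypes did not overlap, but the counting intervals of several libraries did, both between WT and *Zeb1 200H* and between *Zeb1 200H* and *Zeb1 200M*. This share was picked after the values were seen and was not tested. Virgin genotypes overlapped, at 43.27%, 31.82% and 30.44% in WT, between 31.16% and 33.06% with 1 mutated copy and between 31.11% and 33.3% with 2.

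Marker miRNAs moved in the breeding trial too. Of 12 tested, 9 were called in *Zeb1 200M* against WT, 7 higher (miR-124-3p, miR-9-5p, miR-144-3p, miR-223-3p, miR-126a-3p, miR-143-3p and miR-145a-5p) and 2 lower (miR-7a-5p at −0.45 and miR-375-3p at −0.62). Of all miRNAs tested there, 35.9% (99 of 276) were called. In *Zeb1 200H* 2 of 12 were called, miR-124-3p higher and miR-375-3p lower (−0.59), beside 12% of all tested miRNAs (32 of 267). The neuronal markers, led by miR-124-3p, summed to 2103, 1676, 2117 and 2416 CPM in WT, 5918, 4414 and 5985 in *Zeb1 200H*, and 9377, 9461 and 9788 in *Zeb1 200M*. The endocrine markers, led by miR-7a-5p, summed to 256150.3, 245618, 258821 and 238998 CPM in WT, 228703, 217099.5 and 211629 in *Zeb1 200H*, and 198905, 213165 and 195432 in *Zeb1 200M*. Endothelial markers ran from 4051 to 4169 CPM in WT and from 5285 to 6152 in the mutants, smooth-muscle markers from 3669 to 4091 and from 4464 to 6217, and blood markers from 6005 to 8566 and from 7063 to 11188. The endothelial and the smooth-muscle sums were lower in all 4 WT libraries than in any mutant library, while the blood sums overlapped. The skeletal-muscle markers, led by miR-1a-3p, were at 0 in 3 of the 10 libraries and the liver marker miR-122-5p in 5. Their part in the result was not tested.

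Whether a member answered the genotype differently in the cohorts was tested as an interaction, which takes in WT replicate 1 of the virgin cohort. For *Zeb1 200M*, edgeR called 0 of 7 members and 0% of 485 shared miRNAs, and 0 members had an unadjusted p under 0.05. The largest difference was 0.62 ± 0.315 for let-7f-5p (edgeR with Benjamini–Hochberg adjusted p = 0.825), which was 0.18 without virgin WT replicate 1 and ran from 0.15 to 0.94 over 22 alternatives. For *Zeb1 200H*, edgeR called 0 of 7 members and 0% of 489 miRNAs, while let-7e-5p and let-7f-5p had an unadjusted p under 0.05. The largest differences there were let-7e-5p at 1.01 ± 0.389 and let-7f-5p at 0.86 ± 0.319, both with an edgeR and Benjamini–Hochberg adjusted p = 0.645. DESeq2 and limma-voom called 0 members in both, and these fits cannot separate the breeding trial from age, instrument and the counting dictionary. For let-7e-5p in *Zeb1 200H* the difference ran from 0.32, found without virgin WT replicate 1, to 1.31 over 22 alternatives, and for let-7f-5p from 0.34, again without that library, to 1.12.

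The passenger strands of the family were scarce beside the guides. In virgin WT let-7d-3p had 536 ± 286 CPM, let-7i-3p 229 ± 20.6 and the strand shared by let-7a-1 and let-7c-2 203 ± 105, and in breeding-trial WT let-7d-3p had 442 ± 161. With all libraries edgeR called 0 of the 11 virgin passenger strands and 0 of the 4 or 5 tested in each breeding-trial comparison. Without WT replicate 1 it called 1 of 11, let-7b-3p, lower in virgin *Zeb1 200H* against WT (−0.38 ± 0.107, Benjamini–Hochberg adjusted p = 0.0241), where the guide let-7b-5p was called lower too. In that fit 21.6% of all tested miRNAs (151 of 699) were called, 77 of them lower. The count of the guide over that of the passenger was 199 to 285.6 for let-7b in the other 10 virgin libraries and 589.9 in WT replicate 1, and 111 to 162.5 against 766.5 for let-7e. It was also higher in WT replicate 1 for let-7d, 19.8 against 9.29 to 12.1, and for miR-98, 86.7 against 36.1 to 48.2. For let-7i it was lower there, 15.7 against 21.8 to 29.8, and for let-7g, on 8 passenger counts, it lay within the range of the others, 3012 against 1758 to 4285.

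The hairpins at chr16, chr17 and 1 of those at chr9 lie in clusters with miR-99a, miR-99b, miR-100, miR-125a and miR-125b, chosen as partners for their position. In the virgin cohort edgeR called 0 of 5 partners in each of the 3 comparisons, and 0 of 5 against WT without replicate 1. In breeding-trial *Zeb1 200M* against WT, edgeR with Benjamini–Hochberg called 3 of 5, beside 35.9% of all tested miRNAs (99 of 276): miR-100-5p (0.71 ± 0.204, adjusted p = 0.0087) and miR-125b-5p (0.34 ± 0.0943, adjusted p = 0.00732) higher, and miR-125a-5p (−0.32 ± 0.101, adjusted p = 0.0171) lower. In *Zeb1 200H* 1 of 5, miR-100-5p, was called beside 12% of all tested miRNAs (0.71 ± 0.216, adjusted p = 0.0323). Breeding-trial miR-100-5p had 434, 289.6, 392 and 229.6 CPM in WT, 527, 683 and 639.6 in *Zeb1 200H*, and 548, 709 and 635 in *Zeb1 200M*, without overlap between WT and the mutants, as for 33.3% of the miRNAs tested in *Zeb1 200M* (92 of 276) and 23.6% of those tested in *Zeb1 200H* (63 of 267). let-7e-5p, the family member beside miR-125a, was not called there, and let-7a-5p, the member beside miR-100, had no count in this cohort.

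How members ran together over libraries was described by Pearson correlation of log2 TMM-scaled CPM, over points that share genotype and library effects. Over the 10 virgin libraries without WT replicate 1 the 36 pairs of members ran from 0.029 (let-7b-5p with miR-98-5p) to 0.903 (let-7a-5p with let-7f-5p), with a median of 0.564. With WT replicate 1 kept, over 11 libraries, they ran from −0.811 (let-7e-5p with miR-98-5p) to 0.994 (let-7a-5p with let-7f-5p), with a median of −0.0685. Over the 10 breeding-trial libraries the 21 pairs ran from 0.119 (let-7b-5p with let-7i-5p) to 0.899 (let-7e-5p with let-7f-5p). Among 146 other miRNAs ranked by the lower of their correlations with the sum of the members in the 2 cohorts, miR-574-5p came first, at 0.9 over 11 virgin and 0.863 over 10 breeding-trial libraries, but at 0.012 over the 10 virgin libraries without WT replicate 1.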

How the data were processed

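The deposited counts were of small-RNA-seq reads from 21 pituitary libraries, each of which stands with identical counts in 2 of the 6 tables used. The authors trimmed adapters with cutadapt, filtered reads by base quality and looked up the opening 19 nt (virgin cohort) or 18 nt (breeding trial) of the reads in a list of known miRNAs. The other columns of these tables hold the authors' DESeq2 mean levels, fold changes, Wald statistics and p-values and 42 columns of normalized levels per sample, and none of them was used. Library totals are sums of the deposited counts, which were made for the cohorts separately, and genotypes were tested only within a cohort, apart from the interaction between cohorts over 1816 shared names.

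Tests used edgeR 4.0.16 in R 4.3.3 (quasi-likelihood, TMM factors, filterByExpr with minimums of both 10 counts and 15 in total). Alternatives were DESeq2 1.42.0, limma 3.58.1, library totals alone, median-ratio factors and TMM without the family. Other alternatives were no filter, a common fit, a replicate block and each library left out. Leaving out virgin WT replicate 1 together with another setting was chosen after the data were seen. SE came from the fold change and its F statistic. Tables were made with Python 3.11.15, pandas 2.3.3, numpy 2.4.6 and scipy 1.17.1. Some of the edgeR fits were also run on simulated data, and the outcome is not given here. The genes named are all members, the passenger strands, the cluster partners, miR-200a/b and cell-type markers, and the members and lists were chosen with earlier results of these data known.

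Replicate numbers were checked for pairing by correlating the deviations of same-numbered libraries from their group means. In the breeding trial all 3 pairs of *Zeb1 200H* and WT had a correlation above 0.1 (0.198, 0.288 and 0.329), and these numbers were taken as pairs on that ground alone. With the replicate block 0 of 7 members and 45 of 280 miRNAs were called there, against 26 of 271 in the same libraries without the block. Between virgin *Zeb1 200M* and *Zeb1 200H* the correlations were 0.25, 0.198, 0.356 and −0.057, and these numbers were not taken as pairs. Each of the remaining comparisons also had a pair below 0.1.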

Additional observations from a re-analysis of the deposited data

Results flagged for a closer look

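Of 127 values with groups of 4 libraries, 10 had 1 library far from the other 3, where chance flags about 1 in 20 groups. In virgin *Zeb1 200H* replicate 3, let-7c-5p (23509 CPM, others 26240.4 to 26663), let-7e-5p (6427, others 7006 to 7082) and miR-100-5p (171, others 454 to 489) were low. In *Zeb1 200H* replicate 4 let-7e-5p was 5.943% of the members' counts (others 5.822% to 5.831%). In virgin *Zeb1 200M* replicate 1 miR-223-3p had 161 CPM (others 61.5 to 78.0), and in replicate 3 miR-126a-3p had 3749 (others 4066 to 4131) and miR-143-3p 26.1 (others 2172 to 2474). In the breeding trial, WT replicate 2 had let-7g-5p at 17.39% of the members' counts (others 18.53% to 18.72%) and miR-451a at 7724 CPM (others 5384 to 5463), and WT replicate 1 had miR-150-5p at 103.5 CPM (others 188 to 202). The causes were not tested.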

How the results depend on the processing

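Of 1219 fold changes of members under alternative settings, 1084 kept their direction and their side of the threshold, 20 passed it where the setting used in the report did not, and 115 had the other sign, 1 of them called. Of the 115, 26 had virgin WT replicate 1 left out and 18 used library totals alone. Of 157 counts of called members, 142 were 0. Where a value moved, the cause was not tested. The alternatives that leave out WT replicate 1 together with a second change were chosen after seeing the data.

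In virgin *Zeb1 200M* against WT let-7b-5p was called lower by DESeq2, in a common fit of the 3 genotypes and by limma-voom. It was also called lower with WT replicate 1 left out together with median-ratio factors, DESeq2 or TMM without the family. With that library left out and library totals alone, let-7e-5p was called higher instead. In virgin *Zeb1 200H* let-7b-5p was called lower with WT replicate 1 left out together with median-ratio factors, DESeq2 or TMM without the family. With library totals alone 3 members in *Zeb1 200M* and 5 in *Zeb1 200H* were called in the breeding trial.

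Signs differed as follows for let-7b-5p, let-7d-5p, let-7e-5p and let-7f-5p, on which the results turn. With library totals alone let-7d-5p was at 0.30 in virgin *Zeb1 200M* and 0.24 in virgin *Zeb1 200H*, let-7b-5p and let-7d-5p were at 0.085 and 0.195 in breeding-trial *Zeb1 200M*, and let-7b-5p was at 0.16 in breeding-trial *Zeb1 200H*. With library totals and WT replicate 1 left out, let-7d-5p, let-7e-5p and let-7f-5p were at 0.081, 0.26 and 0.14 in virgin *Zeb1 200M* and at 0.023, 0.14 and 0.059 in virgin *Zeb1 200H*. let-7e-5p in virgin *Zeb1 200M* was also at 0.026 with limma-voom and, with WT replicate 1 left out, at 0.078 with median-ratio factors, 0.071 with DESeq2 and 0.096 with TMM without the family, where virgin *Zeb1 200H* had 0.026. let-7d-5p in virgin *Zeb1 200M* was at 0.013 without a filter, let-7b-5p in breeding-trial *Zeb1 200H* at 0.0088 with TMM without the family, and the interaction of let-7e-5p for *Zeb1 200M* at −0.042 with limma-voom. The other members also differed in sign under some settings. With library totals alone let-7g-5p and let-7i-5p were at 0.32 and 0.29 in virgin *Zeb1 200M*, 0.28 and 0.26 in virgin *Zeb1 200H*, and 0.17 and 0.17 in breeding-trial *Zeb1 200M*, and let-7a-5p, let-7c-5p and miR-98-5p had further such values, all uncalled.

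With each library left out in turn, the count of called members ran from 0 to 1 in virgin *Zeb1 200M* and *Zeb1 200H* against WT (1 without WT replicate 1) and in breeding-trial *Zeb1 200H* (1 without *Zeb1 200H* replicate 4). let-7d-5p ran from −0.086 to 0.0044 in virgin *Zeb1 200M* and from −0.11 to 0.00028 in virgin *Zeb1 200H*, and let-7e-5p from −0.84 to 0.10 and from −0.92 to 0.0076. Between the virgin mutants let-7d-5p ran from −0.031 to 0.054. In the breeding trial let-7d-5p ran from −0.071 to 0.0038 in *Zeb1 200M*, and let-7b-5p from −0.16 to 0.093 in *Zeb1 200H* and from −0.20 to 0.033 between the mutants. The interactions for *Zeb1 200M* ran from −0.10 to 0.092 for let-7d-5p and from −0.019 to 0.94 for let-7e-5p.

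After TMM scaling the mean sum of the members was 146035 CPM in virgin WT, 111405 in *Zeb1 200H* and 112111 in *Zeb1 200M*, and in the breeding trial 68229 in WT, 75893 in *Zeb1 200H* and 67011 in *Zeb1 200M*.

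Calls over all miRNAs moved more. In virgin *Zeb1 200M* and *Zeb1 200H* the 44 and 34 calls of edgeR were 86 and 67 with DESeq2, 184 and 152 with limma-voom, 90 and 67 in the common fit, and 168 and 151 without WT replicate 1. They were 25 to 29 and 21 to 22 with any 1 mutant library of the comparison left out, and 25 and 21 at an adjusted p below 0.01. Between the virgin mutants the 15 calls were 5 in the common fit. In the breeding trial the 32 calls in *Zeb1 200H* were 69 with library totals alone and 21 at an adjusted p below 0.01, the 99 in *Zeb1 200M* were 58 at that threshold, and the 3 between the mutants were 5 with limma-voom or without *Zeb1 200M* replicate 2. Without a filter 5 and 2 interactions were called, where edgeR otherwise called 0. With the replicate block members called were 0 in all 6 comparisons and both interactions, and all calls were 20, 19 and 15 in the virgin cohort and 85, 45 and 0 in the breeding trial. The block changed no call of a member.

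The sum of let-7a-5p and let-7c-5p was run in the virgin cohort and not in the breeding trial, which has no count for either.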
